A study of Drosophila melanogaster with 6 samples.

Results

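Larval serum proteins are the storage proteins of the fly. The 6 genes described here are 4 that encode them, Lsp1alpha, Lsp1beta, Lsp1gamma and Lsp2, and 2 fat body protein genes, Fbp1 and Fbp2, out of 17737 genes counted in the study. The list was picked after Lsp2 and Lsp1beta had been seen to be lower in glucose-fed flies, so its members were chosen by the same comparison of diets that is given below. The differences between diets in these 6 genes are therefore a description, and the calls given for them below are not read as a test.

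Larval serum proteins are hexamerins, blood proteins of the arthropod hemocyanin family that have lost copper and oxygen binding. The larval fat body, the insect counterpart of liver and adipose tissue, secretes them into the blood in late larval life and takes them back up before the pupa forms, when they supply amino acids for building adult tissues. Fbp1 is known in larvae as the receptor for this uptake, and Fbp2 encodes a fat body protein related to alcohol dehydrogenase. Lsp2 is also known to be made by the adult fat body.

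The flies were males of genotype w1118, virgins by the description of the experiment, that developed on cornmeal food and then spent 20 days of adult life on a chemically defined (holidic) diet, both at 25°C. One group received unmodified holidic food (HF) and the other glucose-supplemented holidic food (GSF), the same diet with 50 g/L of glucose added. Each diet had 3 libraries, each made from the RNA of 5 whole flies, so every tissue was measured together, and fewer cells of a type cannot be told apart from less RNA per cell. Neither the labels nor the methods say how far the libraries of a diet were kept apart, so the errors below measure the spread between libraries. The shallowest library held 51826530 gene counts and the deepest 66493536, and 3 counts correspond to between 0.0451 and 0.0579 CPM, the counts of a gene scaled to the library total. Ribosomal RNA genes held 15.8% to 16.4% of each HF library and 18.3% to 21.9% of each GSF library. Scalings that leave these genes out are given below, and beyond these their part in the results was not tested.

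The libraries carried the signs of adult male tissue. All 8 male reproductive genes on a marker list were above the filter on low counts described below, and their summed level was 1353 to 1798 CPM on HF and 1431 to 1506 CPM on GSF. The 11 larval and pupal genes on another list (larval cuticle and salivary glue genes among them) summed to between 1.39 and 1.91 CPM on HF and between 1.04 and 2.0 CPM on GSF, and none was above the filter. All 12 markers of the adult fat body were detected, with sums of 5851 to 6646 CPM on HF and 5484 to 6178 CPM on GSF. The listed female markers were low, with the chorion genes Cp36 and Cp38 and the vitelline membrane genes Vm26Aa and Vm34Ca at 4 counts or fewer. Cp15, a chorion gene that was not on the list, had a mean of 2.70 CPM on HF and 2.74 CPM on GSF. Yp3, a yolk protein gene, made up nearly the whole of the female sum of 7.24 to 10.5 CPM over all libraries.

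Lsp2 (FBgn0002565, chromosome 3L of BDGP6.54, 12129393 to 12131869, plus strand, a single exon with a coding length of 2103 bp) was by far the most abundant of the 6 genes. On HF it had 227 CPM in replicate 1, 362 CPM in replicate 2 and 598 CPM in replicate 3. On GSF it had 17.3, 15.4 and 108 CPM in the same order. The lowest HF library thus lay above the highest GSF library, and replicate 3 was the highest on both diets. By CPM, Lsp2 ranked between 197 and 649 among the 17737 genes in the HF libraries and between 1492 and 7712 in the GSF libraries. The means were 396 ± 188 on HF and 46.8 ± 52.7 on GSF (CPM ± SD, n = 3), an 8.45-fold lower mean on GSF. The fitted log2 difference was -3.07 with a standard error of 0.81. GSF replicate 3 had most of the remaining Lsp2, and without this library the log2 difference was -4.61 (standard error 0.43).

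**Figure D1:**
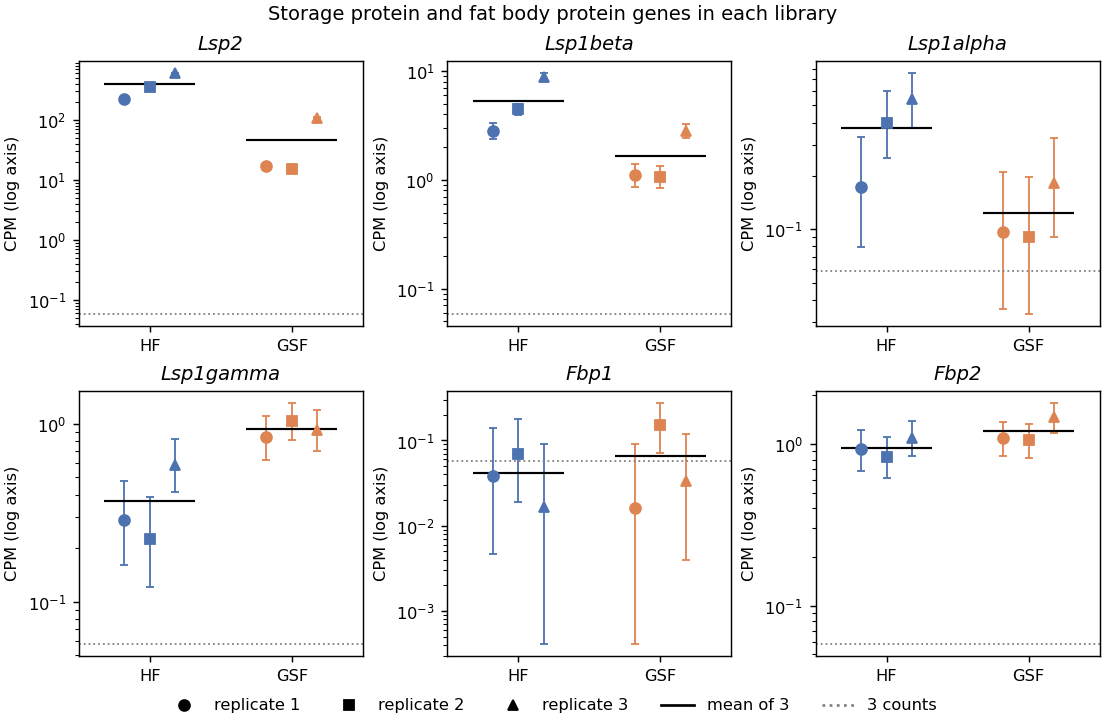
CPM of the 6 genes on log axes that differ between panels, where points are libraries (shape for replicate number, error bar for the exact 95% interval from counting alone), black lines are means of 3 libraries, and dotted lines mark 3 counts in the shallowest library (0.0579 CPM). Lsp2 is higher in every HF library than in any GSF library, Lsp1gamma shows the opposite order, and for Lsp1beta the lowest HF and the highest GSF library are level at 2.82 CPM.

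The counts at the Lsp2 locus do not separate the strands. A noncoding gene on the minus strand, asRNA:CR11538 (12129103 to 12131488), shares 2096 bp of exon with Lsp2, leaving 381 bp of Lsp2 and 290 bp of the antisense gene outside the overlap. The deposited count of asRNA:CR11538 was between 98.3% and 99.4% of the Lsp2 count in every library, and its log2 difference was -3.07 (standard error 0.80), as for Lsp2. How overlapping and antisense reads were handled in the counting is not given in the sources used here. Counts of Lsp2 exceeded those of asRNA:CR11538 by 124, 283 and 540 in HF replicates 1 to 3 and by 18, 6 and 105 in GSF replicates 1 to 3. At least this many counts touched Lsp2 exon without touching the antisense gene. Scaled to depth they were 2.39, 4.92 and 8.85 CPM on HF and 0.291, 0.0902 and 1.74 CPM on GSF, so the excess kept the order of the libraries on each diet, and the HF libraries were again above the GSF libraries. The excess is a small part of the Lsp2 counts and is no separate measurement of them.

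**Figure D2:**
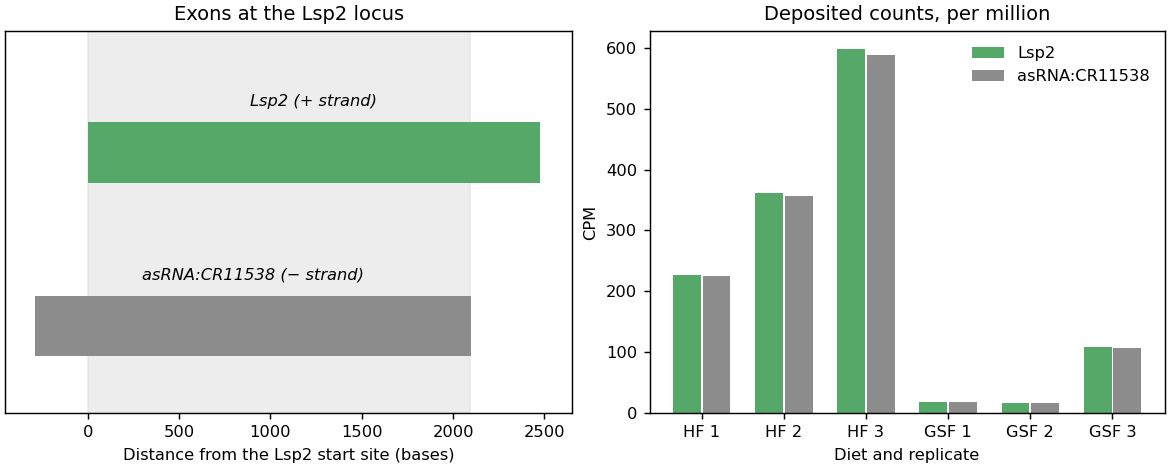
Left, exons of Lsp2 and asRNA:CR11538 by distance in bases from the Lsp2 start site, with the 2096 shared bases shaded. Right, CPM of both genes in each library, where the paired bars differ by less than 2% while the libraries range from 15.4 to 598 CPM for Lsp2.

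The subunits of larval serum protein 1 were at a far lower level than Lsp2 and did not all differ in the same direction. Lsp1beta (FBgn0002563, chromosome 2L, 898500 to 901316) had 2.82, 4.45 and 8.80 CPM in HF replicates 1 to 3 and 1.1, 1.07 and 2.82 CPM in GSF replicates 1 to 3. HF replicate 1 and GSF replicate 3 lay side by side, with 146 and 170 counts, and the scaling decided which was higher. By library total HF replicate 1 was above GSF replicate 3 by 2.8171 to 2.8156 CPM. With the TMM factors of the fit the values were 2.84 and 2.87 CPM, and with rRNA genes left out of the totals 3.346 and 3.603 CPM, so the diets then overlapped. Both scalings were tried after the data had been seen. The mean was 5.36 ± 3.10 on HF and 1.66 ± 1.0 on GSF (CPM ± SD, n = 3), with a log2 difference of -1.70 (standard error 0.51). It was -1.14 without HF replicate 3 and -2.32 without GSF replicate 3. As with Lsp2, replicate 3 was the highest on each diet.

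Lsp1alpha (FBgn0002562, chromosome X, 12490291 to 12492982) was counted 9, 23 and 33 times in HF replicates 1 to 3 and 6, 6 and 11 times in GSF replicates 1 to 3. In CPM this is between 0.174 and 0.541 on HF and between 0.0902 and 0.182 on GSF. HF replicate 1 lay below GSF replicate 3, so the diets overlapped. The log2 difference was -1.61 (standard error 0.50), from a fit that kept genes with low counts.

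Lsp1gamma (FBgn0002564, chromosome 3L, 66430 to 68995) went the other way. It was counted 15, 13 and 36 times in HF replicates 1 to 3 and 52, 69 and 56 times in GSF replicates 1 to 3, and every GSF library was above every HF library. The mean was 0.369 ± 0.195 on HF and 0.935 ± 0.0989 on GSF (CPM ± SD, n = 3), 2.54-fold higher on GSF. The log2 difference was 1.32 (standard error 0.34) in the fit that kept genes with low counts, and 1.85 without HF replicate 3. The highest HF library and the lowest GSF library, with 0.590 and 0.840 CPM, had exact 95% intervals of 0.413 to 0.817 and 0.628 to 1.1 CPM, which overlap. These intervals cover counting error only.

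The Lsp1 genes are related in sequence, and reads of one could in part have been counted on another. How reads that fit several places were treated is not given in the sources used here, and the likeness of the genes was not analysed here. Lsp1alpha, Lsp1beta and Lsp1gamma lie on different chromosomes and none shares exon with another gene of the annotation.

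Fbp1, the receptor gene (FBgn0000639, chromosome 3L, 14094589 to 14098053), was at the limit of detection. It had 2, 4 and 1 counts in HF replicates 1 to 3 and 1, 10 and 2 counts in GSF replicates 1 to 3. The highest value, 0.150 CPM in GSF replicate 2, had an exact 95% interval of 0.0721 to 0.277 CPM, and in 4 of the 6 libraries the count was 3 or less. A difference between the diets was not detectable at this depth. The fitted log2 difference was 0.69 with a standard error of 0.93, and it was -0.71 without GSF replicate 2.

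Fbp2 (FBgn0000640, chromosome 2L, 9426784 to 9427917) had 0.926, 0.835 and 1.08 CPM in HF replicates 1 to 3 and 1.08, 1.05 and 1.46 CPM in GSF replicates 1 to 3. The diets overlapped by library total, and the log2 difference was 0.32 (standard error 0.21). The last 48 bp of Fbp2 are also exon of the next gene on the same strand, CG42847, which was looked at after its values were seen. CG42847 had between 12.5 and 23.1 CPM, and the Fbp2 count was between 4.69% and 6.75% of its count in the 6 libraries. The mean of CG42847 was 14.9 ± 2.58 on HF and 20.7 ± 2.97 on GSF (CPM ± SD, n = 3). Its log2 difference was 0.46 (standard error 0.15), and its libraries overlapped between the diets. How much of the Fbp2 count came from reads across the shared bases was not tested.

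In RPKM, which divides CPM by the exonic length in kilobases, the order of the mean levels on HF was Lsp2 (160), Lsp1beta (1.95), Fbp2 (0.882), Lsp1gamma (0.147), Lsp1alpha (0.142) and Fbp1 (0.0120). On GSF it was Lsp2 (18.9), Fbp2 (1.12), Lsp1beta (0.604), Lsp1gamma (0.374), Lsp1alpha (0.0469) and Fbp1 (0.0192). The libraries of Lsp1gamma and Lsp1alpha overlapped on HF. On GSF those of Fbp2 and Lsp1beta, of Lsp1beta and Lsp1gamma, and of Lsp1alpha and Fbp1 overlapped. Lsp2 stood above the other genes in all 6 libraries.

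Within single libraries the make-up of the storage protein RNA differed between the diets. Lsp2 made up between 98.5% and 98.7% of the summed RPKM of the 4 larval serum protein genes in the HF libraries. In GSF replicates 1 to 3 it made up 90.1%, 88.1% and 96.7%. The RPKM of Lsp2 was 89.6, 90.2 and 75.4 times that of Lsp1beta in HF replicates 1 to 3, and 17.5, 16.0 and 42.5 times in GSF replicates 1 to 3. Lsp1beta was between 8.86 and 17.9 times as high as Lsp1gamma on HF and between 0.936 and 2.76 times on GSF. These ratios come from the same libraries that chose the genes. GSF replicate 3 lay nearest to HF in each of them.

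**Figure D3:**
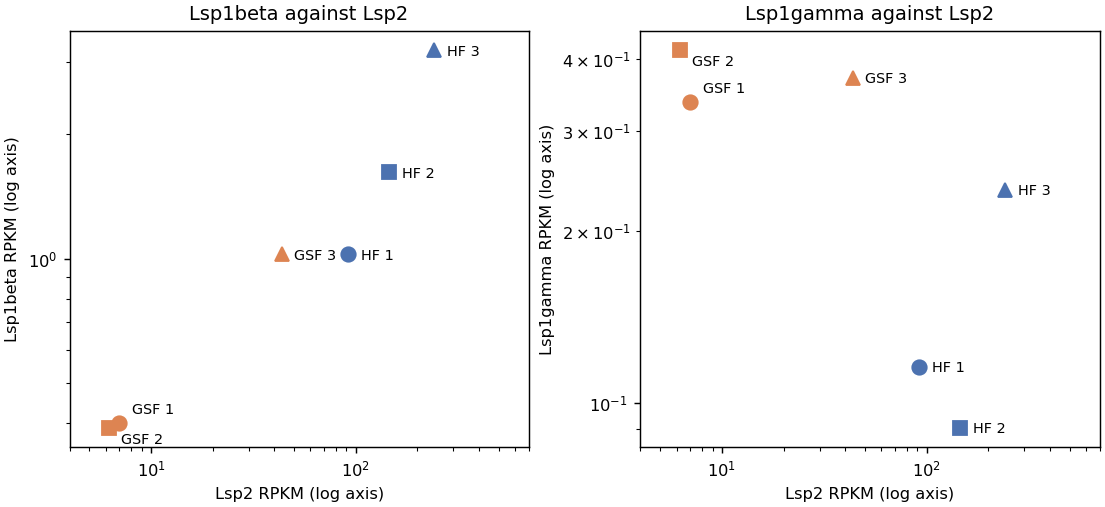
RPKM of Lsp1beta (left) and Lsp1gamma (right) against Lsp2 on log axes, 1 point per library, HF in blue and GSF in orange, with the shape giving the replicate number. Lsp1beta is ordered much as Lsp2 is, with GSF replicate 3 at 43.5 RPKM of Lsp2 between the other libraries, while Lsp1gamma is higher in the GSF libraries.

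Most of the 6 genes were highest in the libraries numbered 3. Over all 13373 tested genes, the libraries numbered 3 deviated together from their diet means, with a correlation of 0.476. The share of all genes highest in replicate 3 was not counted, so the next counts have no background and nothing is read from them. Of the 6 genes, 5 were highest in replicate 3 among the HF libraries and 4 were highest in replicate 3 among the GSF libraries. GSF replicate 3 also had the largest share of ribosomal RNA counts (21.9%), while HF replicate 3 (16.4%) did not stand apart. With rRNA genes left out of the totals, Lsp2 was still highest in replicate 3 on each diet, at 715 CPM on HF and 138 CPM on GSF. Beyond this scaling, the part of the ribosomal share in the levels of these genes was not tested. With both libraries numbered 3 left out, a choice made after seeing the data, the log2 difference was -4.19 for Lsp2 (standard error 0.25), -1.77 for Lsp1beta (0.27) and 1.83 for Lsp1gamma (0.33).

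Of the 6 genes, 3 (Lsp2, Lsp1beta and Fbp2) were among the 13373 genes that reached 1 CPM in 3 or more libraries, the set that entered edgeR's quasi-likelihood comparison of the diets. Calls needed both p under 0.01 and, after Benjamini-Hochberg adjustment, under 0.05. The number called was 0 of these 3, where 5.14% of all tested genes were called. At an unadjusted p under 0.05 it was 2, and the share of all tested genes under this threshold was not counted. Counts under this threshold, here and for the neighbours and lists below, therefore have no background, and nothing is read from them. The number called with edgeR's likelihood ratio test was 2, where 470 of the 13373 tested genes were called higher and 578 lower. With DESeq2 it was 1, where 604 of them were called higher and 824 lower. Blocking on replicate number in the quasi-likelihood fit gave 2, Lsp2 (log2 difference -3.58, standard error 0.39) and Lsp1beta (-1.70, standard error 0.15), where 13.3% of all tested genes were called. The block treats libraries of the same number as pairs, which was read from these counts on weak evidence. Values with the block, here and below, are therefore an alternative and no second result. Scaled by library total, HF and GSF libraries were fully separated in 2 of the 3, Lsp2 and Lsp1beta, against 23.9% of all tested genes. With the TMM factors this held for 1, Lsp2, against 25.2%. With rRNA genes left out of the totals it held for 2, Lsp2 and Fbp2 (the latter higher on GSF, by 1.2954 to 1.2947 CPM), against 29.1%. Since the comparison chose the genes, nothing is read from these counts. By size alone, 2 of the tested genes had a fitted log2 difference at or below that of Lsp2, which were Lsp2 itself and asRNA:CR11538. Lsp2 was picked for its lower level on GSF, so this place is a description. The median over all tested genes was 0.0083.

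Genes beside the storage protein genes on the chromosome were not used in choosing them. Of the 12 nearest genes that do not overlap a member, 1 on each side of each, 8 were tested and 0 were called with edgeR's quasi-likelihood test, 2 had an unadjusted p under 0.05, and 1 each was called by edgeR's likelihood ratio test, by DESeq2 and with the replicate number as a block. DEF8, which starts 277 bp beyond Lsp2, had 18.5 ± 1.55 on HF and 16.5 ± 1.84 on GSF (CPM ± SD, n = 3), with a log2 difference of -0.18 ± 0.10 (SE, edgeR adjusted p = 0.382). CG34241, on the other side of Lsp2 at a distance of 932 bp, had 15.2 ± 3.40 CPM on HF and 15.4 ± 2.23 CPM on GSF, with a log2 difference of 0.0086 ± 0.17 (SE, edgeR adjusted p = 0.99). DEF8 shares 831 bp of exon with asRNA:CR45892 on the other strand. Neither neighbour of Lsp2 passed the test, and both differed far less than the 8.45-fold of Lsp2. The U1 small nuclear RNA gene snRNA:U1:21D, 175 bp from Lsp1beta, had a log2 difference of 0.017 ± 0.19 (SE, edgeR adjusted p = 0.983). The genes that overlap a member, asRNA:CR11538 and CG42847, are not among these 12. Both were called with the block and not with the quasi-likelihood test without it.

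The 4 neighbours below the filter were lncRNA:CR45348, with 3 counts at most, lncRNA:CR44510, with 0 counts in every library, the cuticle protein gene Cpr11A, with 1 to 38 counts, and Mks1, with 30 to 55 counts. The other tested neighbours lay near the remaining genes. Sox21a, a transcription factor gene beside Fbp1, had a log2 difference of 0.31 ± 0.12 (SE, edgeR adjusted p = 0.21). CG8100, on the other side of Fbp1, and CG43149, beside Lsp1gamma, had log2 differences of -0.067 (standard error 0.40) and -0.021 (standard error 0.15). Mco1, a multicopper oxidase gene 442 bp before Fbp2, had 35.8 ± 3.98 CPM on HF and 25.6 ± 3.40 CPM on GSF, with a log2 difference of -0.49 ± 0.13 (SE, edgeR adjusted p = 0.0738, and 0.00935 with the replicate number as a block). FucTB, a fucosyltransferase gene on the other side of Fbp2, had a log2 difference of 0.12 ± 0.12 (SE, edgeR adjusted p = 0.671).

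Genes of the same protein families were followed next. The prophenoloxidases share the hemocyanin fold with the larval serum proteins, and oxidize phenols in melanin formation. Of PPO1, PPO2 and PPO3, 0 were called with edgeR's quasi-likelihood test, 0 had an unadjusted p under 0.05, and 0 were called by the likelihood ratio test, by DESeq2 or with the block. PPO1 had 34.6 ± 14.3 on HF and 23.0 ± 7.58 on GSF (CPM ± SD, n = 3), a log2 difference of -0.59 ± 0.33 (SE, edgeR adjusted p = 0.392). PPO2 had a log2 difference of -0.48 ± 0.23 (SE, edgeR adjusted p = 0.319) and PPO3 of 0.22 ± 0.16 (SE, edgeR adjusted p = 0.551). The median of the 3 was -0.475.

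Of the dehydrogenase genes related to Fbp2, all 3 listed were called lower on GSF. Of all tested genes, 5.14% were called in either direction. The lists were chosen with earlier results of these data known, so nothing is read from this count. Adh, the alcohol dehydrogenase gene, fell from 3966 ± 252 on HF to 2587 ± 273 on GSF (CPM ± SD, n = 3), a log2 difference of -0.63 ± 0.10 (SE, edgeR adjusted p = 0.0141). Adhr lies in the same transcription unit and shares 2116 bp of exon with Adh on the same strand. Its count was between 99.8% and 99.9% of the Adh count, so these are not separate measurements. Pdh, a dehydrogenase gene known from pigment cells of the eye, fell by 0.31 on the log2 scale (standard error 0.07, adjusted p = 0.0461), and 355 bp of its exons overlap asRNA:CR45894, a gene of the opposite strand. Adh was not called without HF replicate 2, GSF replicate 1 or GSF replicate 3 (adjusted p = 0.0539, 0.058 and 0.0553), and Pdh was not called in any fit that left out a library (adjusted p between 0.106 and 0.152), under 3 other scalings or without the filter on low counts (0.0552 to 0.0596).

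Storage protein genes are known targets of ecdysone, the molting hormone, and of fat body transcription factors. Of 14 genes on a list of these regulators, 0 were called with edgeR's quasi-likelihood test and 3 had an unadjusted p under 0.05, while 1 was called by DESeq2 and 0 by the likelihood ratio test. The median log2 difference was 0.098. EcR, the ecdysone receptor gene, had 17.4 ± 0.151 on HF and 19.1 ± 1.98 on GSF (CPM ± SD, n = 3; log2 difference 0.12 ± 0.09 SE, edgeR adjusted p = 0.55). In the fit blocked on replicate number, 2 genes were called higher on GSF. They were Hr3, a nuclear receptor gene induced by ecdysone (log2 difference 0.33 ± 0.09 SE, edgeR adjusted p = 0.0964, and 0.0214 with the block), and Eip93F, an ecdysone-induced transcription factor gene (log2 difference 0.33 ± 0.11 SE, edgeR adjusted p = 0.157, and 0.0231 with the block). The fat body GATA factor gene srp had a log2 difference of -0.22 ± 0.08 (SE, edgeR adjusted p = 0.189).

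Hexamerins are stores of amino acids, and 11 genes of amino acid sensing and TOR signalling were also listed. Of these, 0 were called with edgeR's quasi-likelihood test, 1 had an unadjusted p under 0.05, 0 were called by DESeq2 and 0 by the likelihood ratio test. Their median log2 difference was 0.00047. The gene called with the block was REPTOR, a transcription factor gene that TOR restrains (log2 difference 0.28 ± 0.11 SE, edgeR adjusted p = 0.216, and 0.0254 with the block). Thor, the 4E-BP gene, had 283 ± 30.8 on HF and 276 ± 15.8 on GSF (CPM ± SD, n = 3; log2 difference -0.041 ± 0.09 SE, edgeR adjusted p = 0.887).

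Since the fat body makes these proteins, its markers are given beside them. Of 12 adult fat body markers, 6 had higher and 6 lower fitted values on GSF, with a median log2 difference of -0.049. Of these, 2 were called, both lower: FASN1, a fatty acid synthase gene (log2 difference -0.57 ± 0.09 SE, edgeR adjusted p = 0.0141), and Lsd-1, a perilipin gene of lipid droplets (-0.74 ± 0.13 SE, edgeR adjusted p = 0.0203), with 144 bp of exon shared with CG10214 on the other strand. The serum lipoprotein gene apolpp had 1385 ± 137 on HF and 1719 ± 259 on GSF (CPM ± SD, n = 3), a log2 difference of 0.30 ± 0.12 (SE, edgeR adjusted p = 0.226), and the transferrin gene Tsf1 had a log2 difference of -0.10 ± 0.06 (SE, edgeR adjusted p = 0.453). CCHa2, which encodes a peptide hormone of the fat body, had a log2 difference of -0.49 ± 0.16 (SE, edgeR adjusted p = 0.133, and 0.0449 with the block). FASN1 was not called without HF replicate 1 or 2 or GSF replicate 1 or 2, and Lsd-1 without HF replicate 1 or 2 or GSF replicate 1 or 3. The part of fat body amount in the levels of the storage protein genes was not tested.

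Among the other cell type lists, the phagocytic receptor gene eater was the 1 of 4 tested hemocyte markers that was called, and it was higher on GSF, though not called without GSF replicate 1. Of these 4 markers, 2 had higher and 2 lower fitted values on GSF, with a median log2 difference of 0.0077. Of 4 oenocyte markers, 1 was called, the desaturase gene desat1 (log2 difference -0.42 ± 0.08 SE, edgeR adjusted p = 0.0308), which was not called in any fit that left out a library. The summed level of the oenocyte list was 12640 to 15050 CPM on HF and 9923 to 11600 CPM on GSF, without overlap. Cyp4g1, a cytochrome P450 gene of hydrocarbon synthesis, made up most of it, with 10890 ± 1317 on HF and 8491 ± 952.4 on GSF (CPM ± SD, n = 3; log2 difference -0.37 ± 0.13 SE, edgeR adjusted p = 0.157, and 0.021 with the block). The fatty acid synthase gene FASN3 of the same list was higher in each GSF library than in any HF library (log2 difference 0.13 ± 0.07 SE, edgeR adjusted p = 0.414), and eloF overlapped (-0.21 ± 0.41 SE, edgeR adjusted p = 0.866). The part of oenocytes in the levels of the storage protein genes was not tested. Of the 8 male reproductive genes, 0 were called with edgeR's quasi-likelihood test and 2 had an unadjusted p under 0.05, the same number that DESeq2, the likelihood ratio test and the block each called. The sex peptide gene SP had a log2 difference of -0.45 ± 0.11 (SE, edgeR adjusted p = 0.0651, and 0.0251 with the block), and Acp53Ea, an accessory gland protein gene, of -0.37 ± 0.09 (SE, edgeR adjusted p = 0.0584, and 0.0371 with the block), both without overlap of the diets. By library total, 23.9% of all tested genes had no overlap of the diets, so nothing is read from the separation of single genes here. Of 3 muscle markers 0 were called with edgeR's quasi-likelihood test, 0 had an unadjusted p under 0.05, and DESeq2 and the likelihood ratio test called 0. The yolk protein gene Yp3 had 9.16 ± 0.863 on HF and 7.05 ± 0.362 on GSF (CPM ± SD, n = 3; log2 difference -0.39 ± 0.09 SE, edgeR adjusted p = 0.0615, and 0.0222 with the block). Over the 63 listed genes tested, 7 were called (11.1%, against 5.14% of all tested genes), and 15 with the block (23.8%, against 13.3%). With Adh and Adhr counted as 1 gene it was 6 of 62 (9.68%), and 14 (22.6%) with the block. The lists were chosen with earlier results of these data known, so nothing is read from these shares.

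**Figure D4:**
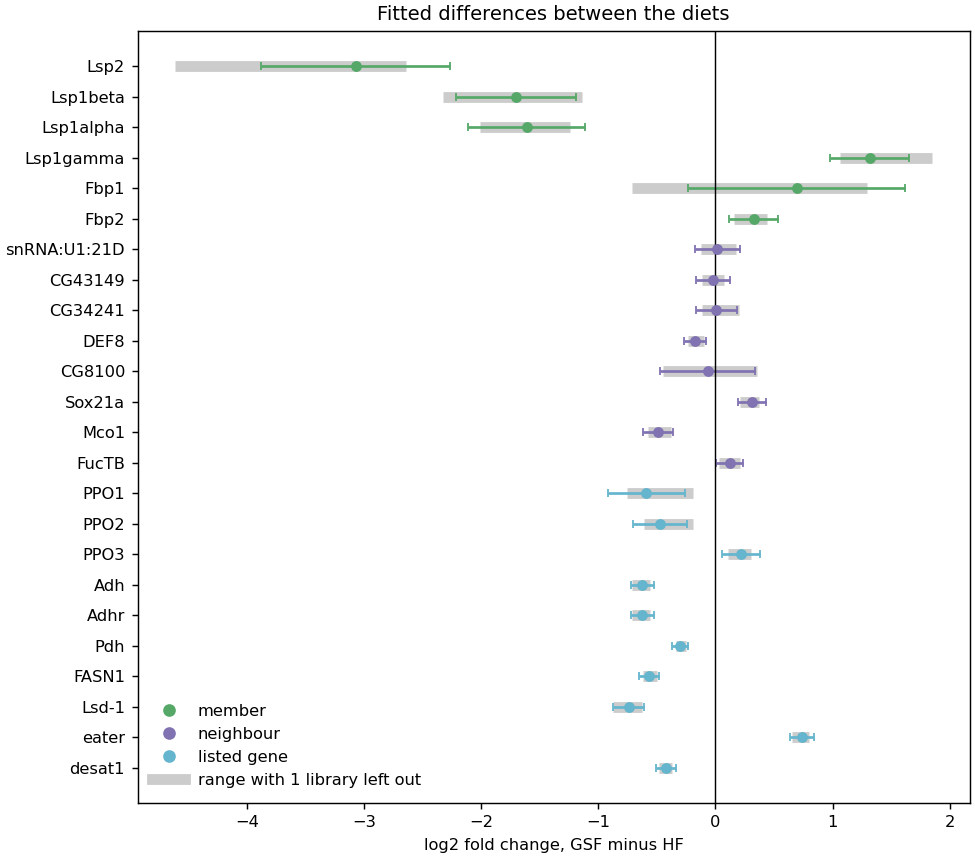
Fitted log2 differences (GSF minus HF) of the 6 members, their 8 tested neighbours and the listed genes that were called or belong to the related families, where points are fitted values with their standard errors and grey bars span the fits that left out 1 library. Lsp2, at -3.07, is far from the neighbours, and the grey bar of Fbp1 crosses 0.

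The genes whose levels were most like those of Lsp2 were found from the Pearson correlation of log2 CPM over the 6 libraries. The first was asRNA:CR11538 (r = 1.0), whose counts are nearly those of Lsp2. Next came CG4133 (r = 0.99), NitFhit (0.99), atk (0.99) and CG16727 (0.99). They varied far less than Lsp2. CG4133 lay between 5.20 and 6.12 CPM in all libraries, and NitFhit between 24.5 and 31.4 CPM. CG16727 had 10.7, 11.6 and 15.0 CPM in HF replicates 1 to 3 and 5.62, 4.72 and 7.62 CPM in GSF replicates 1 to 3, so every HF library was above every GSF library, an order that likeness to Lsp2 favours. Lsp1beta was number 36 in this order (r = 0.96) and Fbp2 number 7919 (r = -0.20). With so few libraries high correlations are frequent, and 246 of 13372 genes had an r over 0.9 with Lsp2. These correlations describe 6 libraries that share their depth and diet with Lsp2.

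When each diet's mean was taken away first, so that the differences left were those between libraries of a diet, the genes most like Lsp2 after asRNA:CR11538 were CG43230, Acf, CG4975 and CG11902 (r between 0.995 and 0.999). CG43230 lay between 0.887 and 1.33 CPM, and Acf, a chromatin remodeling factor gene, between 24.0 and 25.6 CPM. CG4975 shares 3112 bp of exon with CG4984 on the same strand. On this scale Lsp1beta was number 133 (r = 0.93) and Fbp2 number 230 (r = 0.89), and 199 genes had an r over 0.9.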

How the data were processed

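The authors trimmed the paired-end reads with Trimmomatic, used HISAT2 2.1.0 for alignment to bdgp6 and SAMtools 1.8 for conversion, counted reads with Rsubread and deposited raw counts per gene for each library. A deposited comparison table of the authors (fold changes, p-values and FDR) was used for gene symbols only. Lsp1alpha and Fbp1 are not among its symbols and were matched by reference names. Coordinates and exonic lengths are those of the Ensembl annotation BDGP6.54. CPM values were scaled to each library's total count.

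Counts were analysed with edgeR 4.0.16 (TMM, quasi-likelihood test, two-sided, Benjamini-Hochberg adjustment over 13373 genes with at least 1 CPM in 3 libraries) and DESeq2 1.42.0 in R 4.3.3. Members below that filter were fitted with all genes that had a count. The log2 difference (GSF minus HF) divided by the square root of F gave its standard error. Intervals for single libraries are exact (Clopper-Pearson) at 95% and cover counting error only. The test was tested on simulated data.

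Members and lists were chosen with earlier results of these data known. All 81 listed genes matched the files. The rule for named genes took the members, their nearest neighbours, the related families, listed genes that were called, and the 5 genes most like Lsp2 on each scale (log2 CPM with a prior count of 2); other genes were named after their values were seen. Libraries with the same replicate number deviated from the diet means together, with correlations across genes of 0.188, 0.247 and 0.476. The correlations of the other HF and GSF pairs were -0.309 to 0.115. Libraries of the same number were treated as pairs only in the fit with the replicate block, and the main fit left them unpaired. Pairing was read from the counts and not from the labels. The evidence for it is weak, because each diet mean comes from only 3 libraries and the correlations therefore depend on each other. Alternatives were other scalings, filters and tests, the replicate block, coding length, and each library left out.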

Additional observations from a re-analysis of the deposited data

How the results depend on the processing

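The fitted differences of Lsp2, Lsp1beta, Lsp1alpha, Lsp1gamma and Fbp2 kept their sign under every alternative run. With single libraries left out, the log2 fold change of Lsp2 lay between -4.61 and -2.64, that of Lsp1gamma between 1.06 and 1.85 and that of Fbp1 between -0.71 and 1.29. With both libraries numbered 3 left out, Lsp1gamma was at 1.83. The cause of these shifts was not tested. Of the 3 tested members, the number called was 2 with the replicate block, 2 with the likelihood ratio test and 1 with DESeq2. It was 2 with both libraries numbered 3 left out, and between 0 and 1 (Lsp2, without GSF replicate 3) with single libraries left out. Since the comparison of diets chose these genes, nothing is read from these counts. Over all genes, 267 were called higher and 420 lower on GSF; the replicate block gave 910 and 872, DESeq2 604 and 824, and the likelihood ratio test 470 and 578. With both libraries numbered 3 left out it was 82 and 99, and with single libraries left out between 48 and 224 higher and between 65 and 293 lower, where fewer samples entered the fit. The 7 called listed genes became 15 with the block, 12 with DESeq2 and between 0 (without GSF replicate 1) and 5 with single libraries left out. The tested members with separated diets numbered 2 by library total and 1 with TMM factors. The neighbour called was 1 (Mco1) with the block, DESeq2 and the likelihood ratio test. With coding length in place of exonic length, Fbp2 had 1.23 RPKM on HF and 1.56 RPKM on GSF. With annotated rRNA genes left out of the library totals, it had 1.05 and 1.39 RPKM, and Lsp1gamma had 0.466 RPKM on GSF. Depth limits Fbp1, at 1 to 10 counts per library, and Lsp1alpha, at 6 to 33.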
